A study of Mus musculus with 40 samples.

Results

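The nuclear-encoded subunits and assembly factors of the mitochondrial respiratory chain were followed in mouse liver after treatment with D3T or CDDO-Im. Members were the genes whose symbol begins with Ndufa, Ndufb, Ndufc, Ndufs, Ndufv, Sdh, Uqcr, Cox4i, Cox5, Cox6, Cox7 or Cox8 and whose probe set was at log2 4 or above in 3 or more mice of a group. The array carried 77 such genes on 154 probe sets, of which 130 probe sets and 69 genes passed this minimum, out of 9695 genes that passed it in all. A gene with several probe sets was represented by the brightest of them. The 69 members were 33 subunits of complex I, 4 of complex II, 8 of complex III and 11 of complex IV, with 8 assembly factors of complex I (Ndufaf1 to Ndufaf8), 4 of complex II (Sdhaf1 to Sdhaf4) and Cox7a2l, which joins complexes III and IV into supercomplexes. The 8 genes below the minimum were Cox4i2, Cox6a2, Cox6b2, Cox7b2, Cox8b, Cox8c, Ndufa4l2 and Ndufb4.

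D3T is an unsaturated sulfur heterocycle and CDDO-Im an oleanane triterpenoid carrying an imidazolide, and both activate Nrf2, the transcription factor (gene Nfe2l2) that drives cytoprotective genes. Nrf2-null and wild-type (Wt) male C57BL/6J mice of 12 weeks, all on a purified AIN-76A diet, received 300 μmol/kg D3T, 3, 10 or 30 μmol/kg CDDO-Im, or the vehicle of Cremophor-EL, DMSO and PBS, by gavage, with 3 administrations over 5 days. Livers were taken 24 h after the last of them, giving 40 arrays in 10 groups of 4 mice. The Nrf2-null mice lacked the gene in every cell, and the RNA came from whole liver, in which fewer cells of a type and less RNA per cell cannot be told apart.

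The respiratory chain passes electrons taken from NADH by complex I and from succinate by complex II through ubiquinone to complex III, then through cytochrome c to complex IV, which reduces oxygen. All of these except complex II pump protons and also hold subunits encoded by mitochondrial DNA, so that nuclear and mitochondrial products must be made together, with assembly factors placing the iron-sulfur clusters, flavins and hemes. Hepatocytes are rich in mitochondria and use the chain to power gluconeogenesis and urea synthesis and to reoxidize the NADH of fatty acid oxidation.

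Values are the deposited log2 intensities, and all differences below are on that scale. Each comparison was made gene by gene with limma, with p adjusted by Benjamini-Hochberg over all 9695 genes. Array medians lay between 7.50 and 7.65 in the Wt mice given 30 μmol/kg CDDO-Im and between 7.71 and 7.77 in the Wt vehicle mice, while the other groups lay between 7.57 and 7.86. Every comparison was therefore also made after each array had been centred on its own median. The Nfe2l2 probe set that separates the genotypes read 2.72 to 3.10 in the 20 Nrf2-null mice and 10.77 to 11.75 in the 20 Wt mice, while a second Nfe2l2 probe set overlapped between them (5.96 to 7.47 and 4.49 to 7.10). All 6 hepatocyte markers were measured, with group means of 15.34 to 15.47. Some markers of skeletal muscle, fat or exocrine pancreas did not pass the expression minimum, yet reached log2 6 on 9 arrays. Those arrays included Wt vehicle replicates 1 and 3 and Wt CDDO-Im 30 replicate 3. Markers of these tissues that passed the minimum were not used to pick arrays. Counts without these 9 arrays are given beside the main ones. Animal numbers in the labels formed a lower range in the D3T and 30 μmol/kg groups and a higher range in the others, so that treatment and animal series cannot be told apart when either is set against vehicle.

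Promoters are shown for 3 members to which the results return, since Nrf2 binds antioxidant response elements and nuclear respiratory factor 1 (NRF-1) binds the promoters of many respiratory genes. The 300-base windows run from 250 bases before to 50 bases after the RefSeq start site in GRCm38.p6, on the strand of the gene, and capitals mark motif matches. Ndufa9, at chr6:126849095-126849394 on the minus strand, has an antioxidant response element core (TGACNNNGC). Sdhaf1, at chr7:30322326-30322625 on the minus strand, has a CCAAT box, and Ndufaf4, at chr4:24897833-24898132 on the plus strand, has an antioxidant response element core and NRF-1 cores (GCATGCG on either strand), 2 of which overlap on opposite strands.
Ndufa9: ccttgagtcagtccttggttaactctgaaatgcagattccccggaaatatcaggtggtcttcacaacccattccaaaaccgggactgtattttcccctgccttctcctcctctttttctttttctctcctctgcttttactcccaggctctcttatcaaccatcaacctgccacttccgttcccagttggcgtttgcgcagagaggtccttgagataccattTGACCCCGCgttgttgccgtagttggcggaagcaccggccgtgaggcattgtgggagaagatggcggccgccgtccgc
Sdhaf1: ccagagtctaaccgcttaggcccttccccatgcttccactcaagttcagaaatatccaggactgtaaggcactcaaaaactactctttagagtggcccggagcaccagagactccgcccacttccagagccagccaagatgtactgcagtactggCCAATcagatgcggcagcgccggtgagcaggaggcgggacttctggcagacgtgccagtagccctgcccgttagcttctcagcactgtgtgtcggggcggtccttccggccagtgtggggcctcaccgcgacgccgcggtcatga
Ndufaf4: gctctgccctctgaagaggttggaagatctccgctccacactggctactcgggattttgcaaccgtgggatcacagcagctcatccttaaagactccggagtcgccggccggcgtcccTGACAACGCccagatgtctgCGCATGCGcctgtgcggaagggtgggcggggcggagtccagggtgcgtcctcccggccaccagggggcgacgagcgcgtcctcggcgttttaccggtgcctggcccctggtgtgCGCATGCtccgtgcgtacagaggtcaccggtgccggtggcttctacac
Of the 69 members, 59 had such a window in the RefSeq table. The NRF-1 core was present in 8 of them (13.6%), against 7.52% of the 7950 windows of measured genes. The antioxidant response element core was present in 10 (16.9%), against 17.1% of measured genes, and CCAAT in 21 (35.6%), against 43.0%. Both strands were searched. Among the 36 members with a window that were lower in Wt liver at 30 μmol/kg CDDO-Im, 16.7% held the antioxidant response element core and 11.1% the NRF-1 core, and among the other 23 members 17.4% held the first and 17.4% the second.

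In Wt liver, respiratory chain transcripts were lower with CDDO-Im, by small amounts and in many members together. At 30 μmol/kg, 44 of 69 members were lower than with vehicle by limma and 0 were higher, where 20.8% of all genes were lower and 2.81% higher. The median member was lower by 0.27, at 83.0% of its vehicle level, and the median of all genes was lower by 0.16. The 44 were 22 of 33 complex I subunits, 2 of 4 complex II subunits, 6 of 8 complex III subunits, 9 of 11 complex IV subunits, 2 of 8 complex I assembly factors and 3 of 4 complex II assembly factors. Values of the 4 treated mice lay wholly below those of the 4 vehicle mice in 51 members, and groups did not overlap in 73.9% of members against 28.3% of all genes. Cox7a1, Cox7c and Sdhaf1 were the only members whose change reached 1.5-fold.

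**Figure D1:**
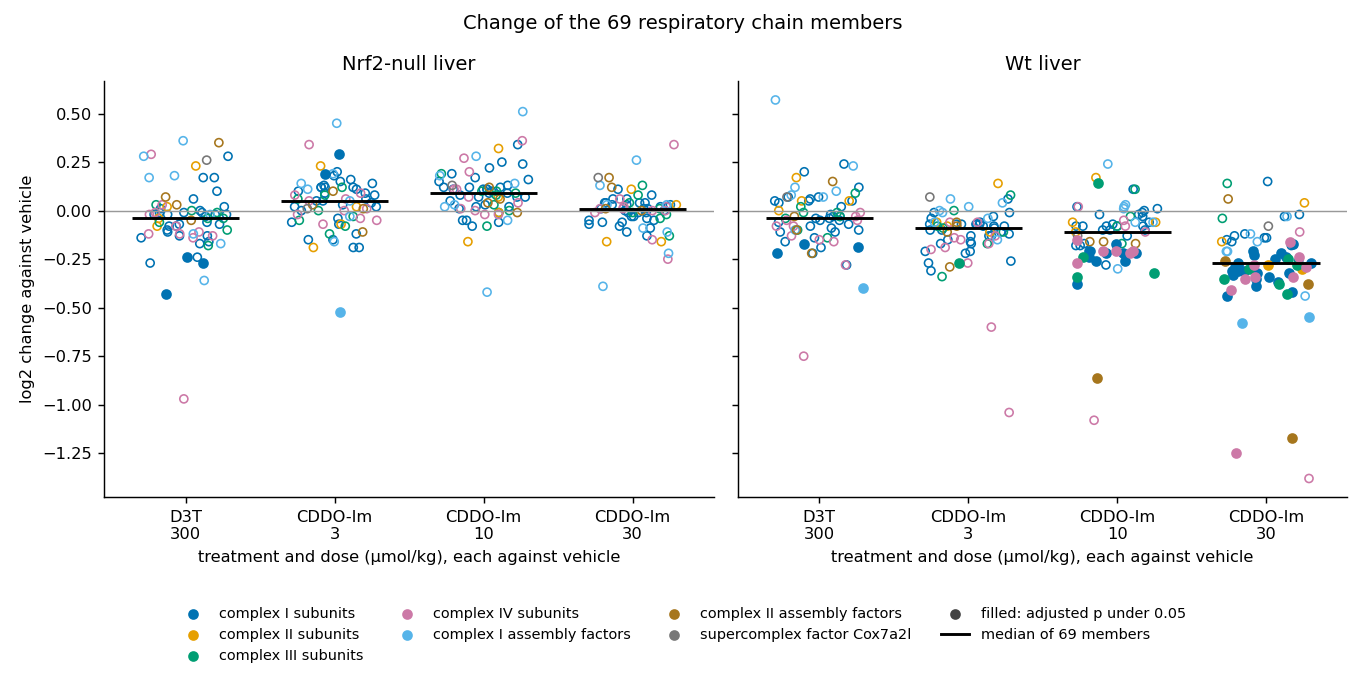
Log2 change against vehicle of the same genotype (y axis) of each of the 69 members with D3T at 300 and CDDO-Im at 3, 10 and 30 μmol/kg (x axis), in Nrf2-null mice (left) and Wt mice (right). Filled points had an adjusted p under 0.05 and black bars are medians. In Wt mice the median was −0.27 at 30 μmol/kg CDDO-Im, or −0.10 when arrays were centred, and in Nrf2-null mice it was 0.01.

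The number of calls depended on how the arrays were scaled. After centring, 5 members were lower at 30 μmol/kg (Ndufa9, Ndufaf6, Sdhaf1, Uqcrb and Cox7c) and 2 were higher (Ndufb6 by 0.32, adjusted p = 0.027, and Uqcrc1 by 0.31, adjusted p = 0.029), where 5.61% of all genes were lower and 6.57% higher, so that the share of members lower (7.25%) was close to that of all genes. The centred median member change was −0.10, with class medians of −0.09 for complex I, −0.05 for complex II, −0.12 for complex III and −0.16 for complex IV subunits. Class medians kept their sign under centring except that of Cox7a2l, which was −0.08 as deposited and 0.09 centred. After a second quantile normalization 38 members were lower and 0 higher, against 8.27% of all genes lower.

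Most members were bright, and genes of like brightness moved less. Of the 46 members with a mean of log2 12 or more, 36 (78.3%) were lower at 30 μmol/kg, whereas 18.2% of all 943 genes of that brightness were lower, and the median changes were −0.28 and −0.08. After centring, 2 of the 46 (4.35%) were lower against 1.8% of the 943, and the median member change was −0.11 where that of the 943 genes was 0.09. In the range from 12 to 14 the median was −0.28 for 33 members and −0.09 for 707 genes, and above 14 it was −0.28 for 13 members and −0.05 for 236 genes.

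**Figure D2:**
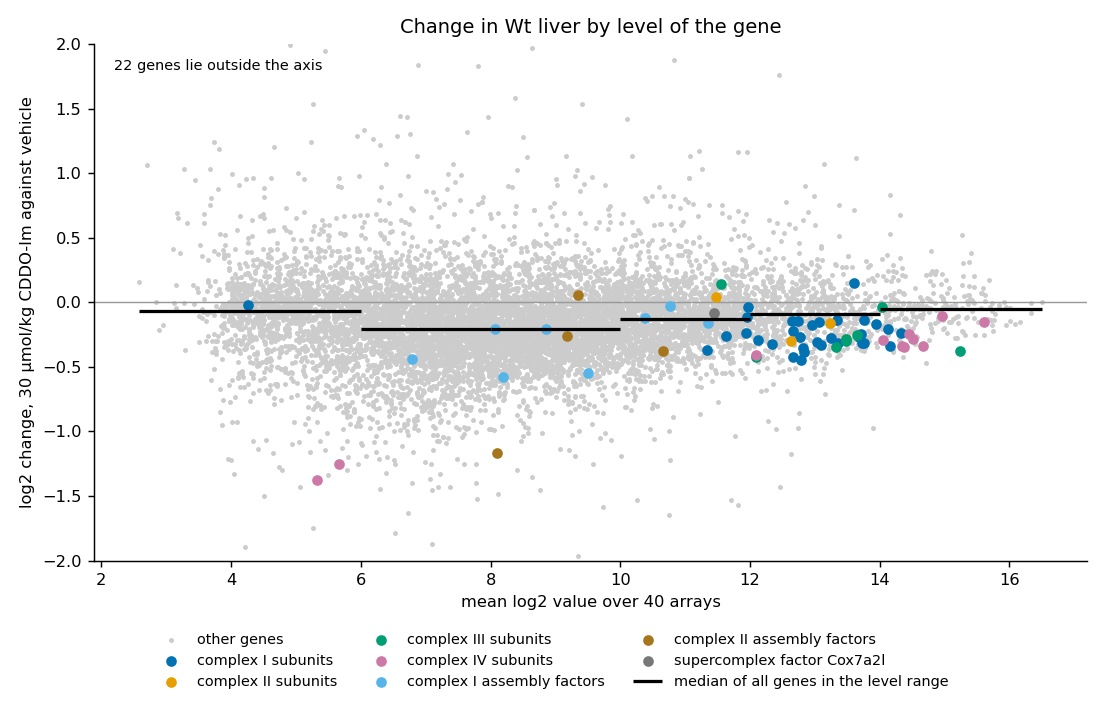
Log2 change with CDDO-Im at 30 μmol/kg against vehicle, Wt liver (y axis), against mean log2 intensity over 40 arrays (x axis), with members colored by class, other genes in gray and black bars for the median of all genes in each range of brightness, and 22 genes lie outside the axis. The members of log2 12 or more had a median of −0.28, below the −0.08 of all genes of that brightness.

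At lower doses fewer members passed. At 3 μmol/kg in Wt liver 1 member was lower and 0 higher, against 0.248% and 0.227% of all genes, although the groups did not overlap in 22 members (31.9%, 21 of them below vehicle), against 7.96% of genes. At 10 μmol/kg 19 members were lower and 1 was higher, against 12.4% and 5.06% of all genes. After centring 5 were lower (Ndufa9, Ndufs7, Ndufv3, Sdhaf1 and Uqcrb) and 2 higher (Sdhc and Uqcrc2), against 9.09% and 7.1% of genes. Median member changes were −0.09 at 3, −0.11 at 10 and −0.27 at 30 μmol/kg, where the medians of all genes were −0.01, −0.08 and −0.16. Between the higher doses, 15 members were lower at 30 than at 10 μmol/kg and 0 were higher, against 14.2% and 5.25% of genes, and 3 were lower and 2 higher after centring, against 7.54% and 10.4%. Without the 9 arrays that carried markers of other tissues, 16 members were lower at 30 and 2 at 10 μmol/kg, against 4.8% and 3.17% of all genes lower, with medians of −0.23 and −0.09. That fit held 2 of the 4 Wt vehicle mice and 3 of the 4 Wt mice given 30 μmol/kg.

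Complex I takes electrons from NADH at a flavin and hands them along iron-sulfur clusters to ubiquinone. The mean log2 level of its 33 subunits was 12.61, 12.58, 12.50 and 12.52 in the 4 Wt mice given 30 μmol/kg CDDO-Im, against 12.83, 12.81, 12.77 and 12.75 in the Wt vehicle mice. All treated mice were below all vehicle mice. The catalytic core subunits measured were Ndufv1, which holds the flavin, and the iron-sulfur or quinone-module subunits Ndufv2, Ndufs1, Ndufs3, Ndufs7 and Ndufs8, and all 6 fell at 30 μmol/kg, by 0.23 (Ndufs1) to 0.44 (Ndufs7). None of these 6 passed after centring. Complex I subunits that did not pass as deposited included Ndufa8, at −0.03, Ndufs5, at −0.12, and Ndufb6, at 0.15.

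Ndufa9, an accessory subunit near the ubiquinone site, had the smallest p in complex I at both higher doses. It read 12.46, 12.44, 12.43 and 12.32 in Wt mice at 30 μmol/kg, and 12.60, 12.58, 12.62 and 12.48 at 10 μmol/kg, against 12.90, 12.81, 12.89 and 12.72 with vehicle. Neither dose overlapped vehicle. By limma the change was −0.42 ± 0.05 (SE, n = 4 per group, adjusted p = 3e-06) at 30 and −0.26 ± 0.05 (adjusted p = 0.0012) at 10 μmol/kg, and both passed after centring (−0.25, adjusted p = 0.0072, and −0.21, adjusted p = 0.020). Ndufs7, whose iron-sulfur cluster is the last before ubiquinone, read 12.69, 12.56, 12.46 and 12.68 at 30 and 12.61, 12.78, 12.63 and 12.63 at 10 μmol/kg, against 13.14, 13.06, 13 and 12.96 with vehicle, again with no overlap. It fell by 0.44 (adjusted p = 0.0017) and 0.38 (adjusted p = 0.0088), and after centring passed at 10 (adjusted p = 0.040) but not at 30 μmol/kg (adjusted p = 0.095).

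Assembly factors of complex I divided. Ndufaf6, which acts early in the assembly of the quinone-binding arm, read 9.24, 9, 8.88 and 8.74 in Wt mice at 30 μmol/kg, against 9.43, 9.38, 9.71 and 9.55 with vehicle, without overlap, and fell by 0.55 (adjusted p = 0.00054) or by 0.38 after centring (adjusted p = 0.0078). At 10 μmol/kg it read 9.62, 9.48, 9.57 and 9.51, within the vehicle range, and the difference of 30 minus 10 μmol/kg was −0.58 (adjusted p = 0.00032). Ndufaf3 read 8.04, 7.81, 7.6 and 7.36 at 30 μmol/kg against 8.27, 8.48, 8.16 and 8.22 with vehicle and fell by 0.58 (adjusted p = 0.027). Ndufaf4, its partner in a membrane-bound assembly intermediate, read 10.89, 10.85, 10.64 and 10.85 against 10.66, 10.80, 11.00 and 10.90, which overlapped, with a change of −0.03 (adjusted p = 0.88).

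Complex II links the citric acid cycle to the chain. Sdhb, its iron-sulfur subunit, read 13.27, 13.35, 13.25 and 13.07 in Wt mice at 30 μmol/kg against 13.63, 13.52, 13.45 and 13.48 with vehicle and fell by 0.28 (adjusted p = 0.022). Sdhd, a membrane anchor, read 12.40, 12.36, 12.23 and 12.26 against 12.76, 12.64, 12.48 and 12.57 and fell by 0.30 (adjusted p = 0.00079), although its other probe set changed by 0.03. The flavoprotein Sdha (−0.16, adjusted p = 0.11) and the anchor Sdhc (0.04, adjusted p = 0.78) did not pass, and none of these subunits passed at 10 μmol/kg. After centring the single one to pass was Sdhc, higher at 10 μmol/kg by 0.22 (adjusted p = 0.045).

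Sdhaf1, a small protein that helps insert iron-sulfur clusters into Sdhb, had the largest called fall of any member but the dim Cox7c. It read 7.64, 7.09, 6.98 and 7.45 in Wt mice at 30 μmol/kg, and 7.07, 7.91, 7.71 and 7.71 at 10 μmol/kg, against 8.48, 8.47, 8.48 and 8.38 with vehicle. Every mouse at either dose was below the lowest vehicle mouse. At 3 μmol/kg it read 8.01, 7.99, 8.13 and 8.53, and the last of these overlapped vehicle. The change was −1.17 ± 0.15 (SE, adjusted p = 3.4e-06), or 44.6% of the vehicle level, at 30 and −0.86 ± 0.15 (adjusted p = 0.00030), or 55.3%, at 10 μmol/kg, with −0.99 (adjusted p = 2.5e-05) and −0.80 (adjusted p = 0.00038) after centring. Of the other complex II assembly factors, Sdhaf3 (−0.26, adjusted p = 0.011) and Sdhaf4 (−0.38, adjusted p = 0.012) fell at 30 μmol/kg and did not pass after centring, while Sdhaf2, which adds the flavin to Sdha, changed by 0.06.

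**Figure D3:**
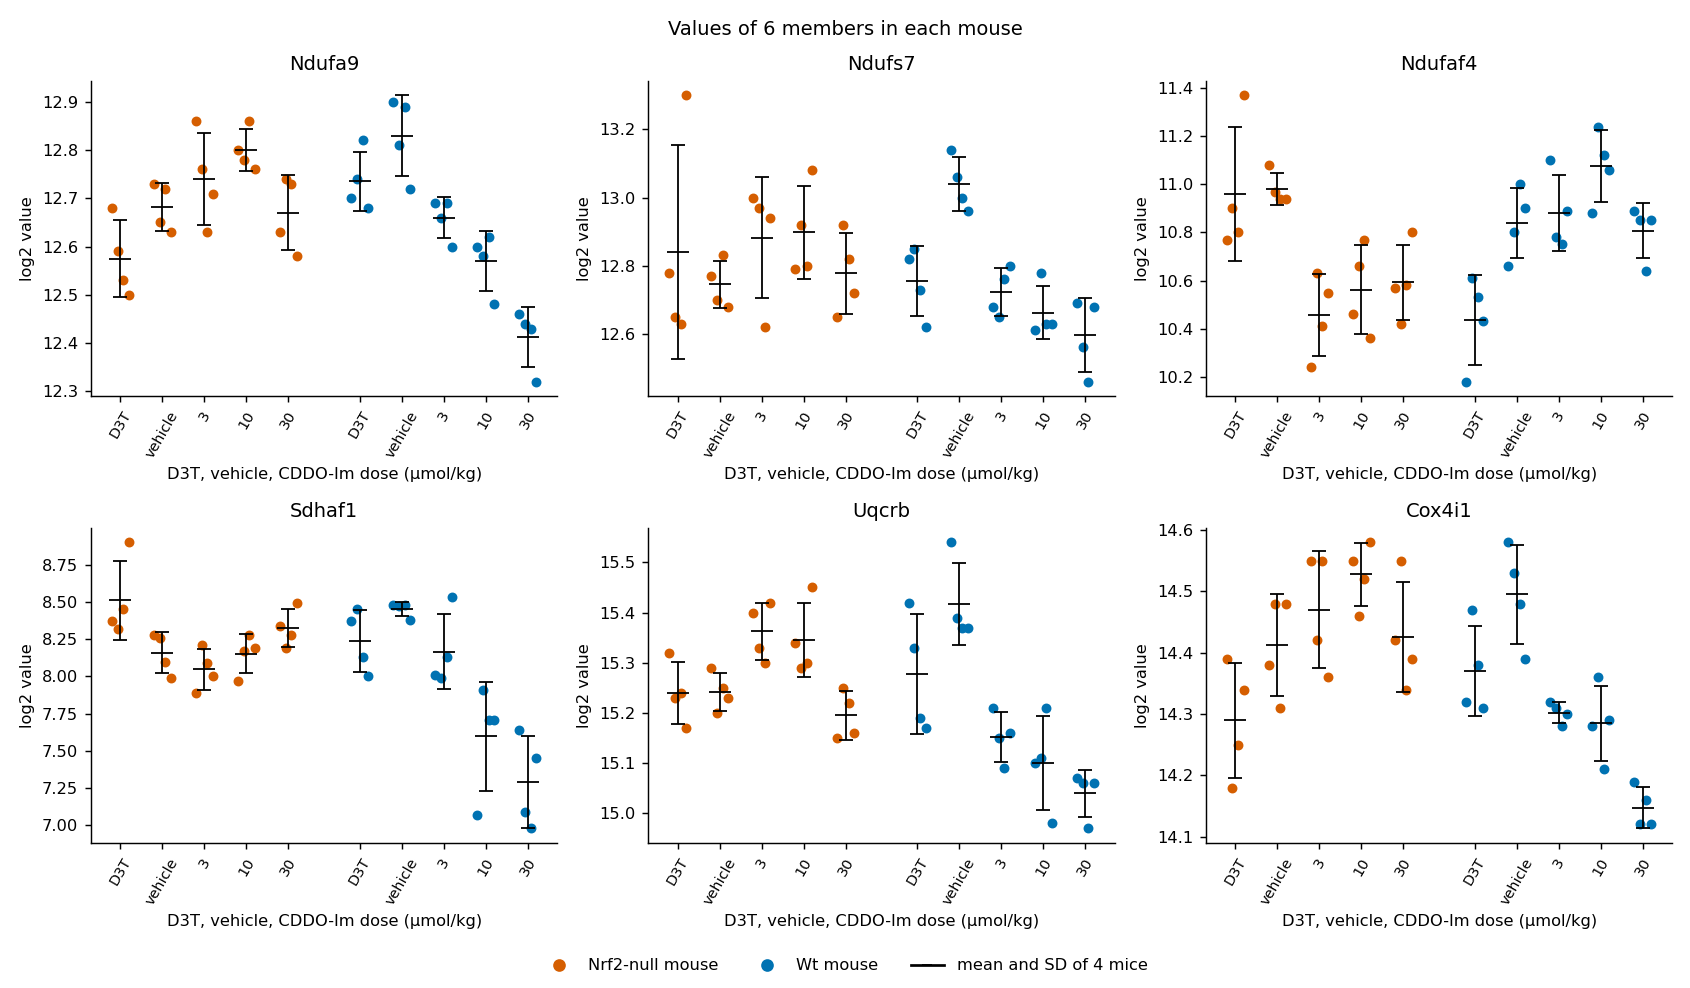
Log2 intensity (y axis) of Ndufa9, Ndufs7, Ndufaf4, Sdhaf1, Uqcrb and Cox4i1 in each mouse by treatment (x axis), with Nrf2-null groups left of Wt groups in each panel (points are mice and bars are mean and SD of 4). Sdhaf1 lay at 6.98 to 7.64 in the Wt mice given 30 μmol/kg CDDO-Im and at 8.19 to 8.49 in the Nrf2-null mice given the same dose.

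Complex III moves electrons onto cytochrome c. Uqcrb, a subunit close to a ubiquinone-binding site, was the single member called at 3 μmol/kg in Wt liver and fell there at every CDDO-Im dose. With vehicle and at 3, 10 and 30 μmol/kg the mice read 15.54, 15.39, 15.37 and 15.37, then 15.21, 15.15, 15.09 and 15.16, then 15.10, 15.11, 15.21 and 14.98, and lastly 15.07, 15.06, 14.97 and 15.06. Every treated mouse was below every vehicle mouse. The changes were −0.27 (adjusted p = 0.012), −0.32 (adjusted p = 0.00016) and −0.38 (adjusted p = 9.2e-06) at 3, 10 and 30 μmol/kg, and −0.20 (adjusted p = 0.024) at 30 μmol/kg after centring. Its other probe set changed by −0.03 at 10 and fell by 0.25 (adjusted p = 0.0068) at 30 μmol/kg.

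The other small subunits and the Rieske protein followed at 30 μmol/kg. Uqcr10 read 11.86, 11.91, 11.82 and 11.80 in treated Wt mice, against 12.37, 12.28, 12.24 and 12.21 with vehicle, and fell by 0.43 (adjusted p = 0.0024), and by 0.34 (adjusted p = 0.017) at 10 μmol/kg. Uqcr11, Uqcrh, Uqcrq and the Rieske iron-sulfur subunit Uqcrfs1 fell by 0.25 to 0.35. The core subunits Uqcrc1 and Uqcrc2, which bear no redox center, changed by 0.14 (adjusted p = 0.28) and −0.04 (adjusted p = 0.61). At 10 μmol/kg Uqcrc2 read 14.05, 14.08, 14.13 and 14.09 against 13.95, 13.87, 13.98 and 14 with vehicle and was the single member called higher, by 0.14 (adjusted p = 0.037). Its other probe set was at −0.05 there and fell by 0.24 (adjusted p = 0.0042) at 30 μmol/kg.

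Complex IV had the lowest class median at every CDDO-Im dose among the 4 complexes, −0.17 at 3, −0.21 at 10 and −0.34 at 30 μmol/kg. Its mean subunit level was 12.36, 12.32, 12.40 and 12.34 in Wt mice at 30 μmol/kg, against 13.03, 12.75, 12.84 and 12.67 with vehicle. The groups did not overlap, and the highest vehicle mouse, replicate 1, also carried muscle transcripts. The mean includes the dim Cox7a1 (−1.38) and Cox7c (−1.25), whose changes were larger than that of any other complex IV subunit. Cox4i1, the subunit through which ATP regulates the enzyme, read 14.19, 14.12, 14.16 and 14.12 at 30 μmol/kg against 14.58, 14.53, 14.48 and 14.39 with vehicle, without overlap. It fell by 0.35 ± 0.05 (SE, adjusted p = 4.8e-05), to 78.5% of vehicle, and by 0.21 (adjusted p = 0.0071) at 10 μmol/kg, with adjusted p = 0.054 at 30 μmol/kg after centring.

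Cox7a2, the liver isoform of its subunit, had the smallest p of complex IV at 10 μmol/kg, where it read 14.44, 14.43, 14.42 and 14.29 against 14.59, 14.62, 14.63 and 14.63 with vehicle, without overlap (−0.22, adjusted p = 0.0030). At 30 μmol/kg Cox6b1, Cox6c, Ndufa4, Cox8a, Cox5b and Cox6a1 fell as well, by 0.16 (Cox6a1) to 0.41 (Cox8a), and Cox5a, whose treated mice also lay below vehicle, did not pass (−0.11, adjusted p = 0.095). Ndufa4 bears a complex I name but is a complex IV subunit. Cox7c read 4.97, 3.79, 4.79 and 4.60 at 30 μmol/kg against 5.64, 5.75, 6.08 and 5.69 with vehicle and fell by 1.25 (adjusted p = 0.00028). Its probe set was among the dimmest of the members, and its other probe set did not pass (−0.58, adjusted p = 0.091).

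**Figure D4:**
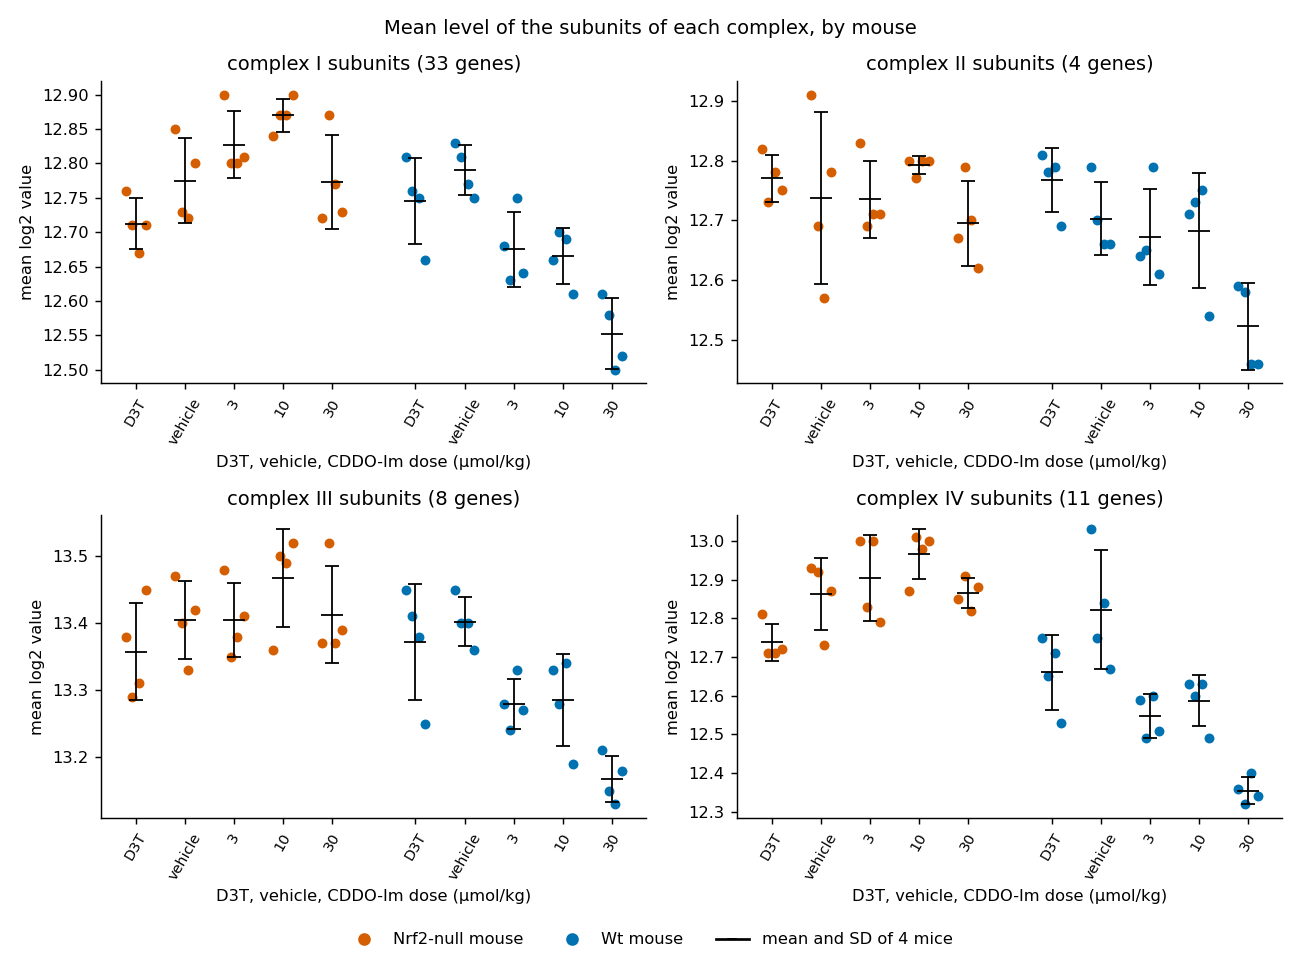
Mean log2 intensity (y axis) of the measured subunits of complexes I (33), II (4), III (8) and IV (11) in each mouse, by treatment (x axis), with Nrf2-null mice in orange on the left and Wt mice in blue on the right of each panel, and mean and SD of 4 mice. Complex IV lay at 12.32 to 12.40 in Wt mice at 30 μmol/kg CDDO-Im and at 12.82 to 12.91 in Nrf2-null mice at that dose. That mean includes the dim Cox7a1 (group means 4.06 in Wt and 6.45 in Nrf2-null mice) and Cox7c (4.54 and 5.57). Each of these differed more between the genotypes than any other complex IV subunit. As deposited the medians of all 4 complexes were below 0 at 30 μmol/kg in Wt mice and stayed below 0 after centring, at −0.05 (complex II) to −0.16 (complex IV).

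Muscle isoforms of complex IV subunits read differently. Cox7a1, the heart and skeletal muscle partner of Cox7a2, read 3.47, 4.18, 4.46 and 4.14 in Wt mice at 30 μmol/kg against 7.83, 4.59, 5.21 and 4.14 with vehicle, where replicate 1 stood far above the others and the groups overlapped. Its change of −1.38 ± 0.52 (SE) had the largest size of any member and did not pass (adjusted p = 0.051). Wt vehicle replicate 1 also read 12.36 for Acta1, 7.71 for Ckm, 8.35 for Cox6a2 and 7.03 for Cox8b, where the other 3 vehicle mice read 2.58, 2.22, 2.20 and at most 3.96. The muscle list had 6 fixed markers, of which 0 passed the expression minimum, and its mean per mouse ran between 2.65 and 4.51 in Wt mice at 30 μmol/kg and between 2.67 and 8.88 in Wt vehicle mice. In Nrf2-null mice Cox7a1 read 6.33, 6.73, 6.14 and 6.60 at 30 μmol/kg and 6.37, 6.46, 5.04 and 6.57 with vehicle. Cox4i2, Cox6b2, Cox7b2, Cox8c, Ndufa4l2 and Ndufb4 did not exceed 2.93 on any array.

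**Figure D5:**
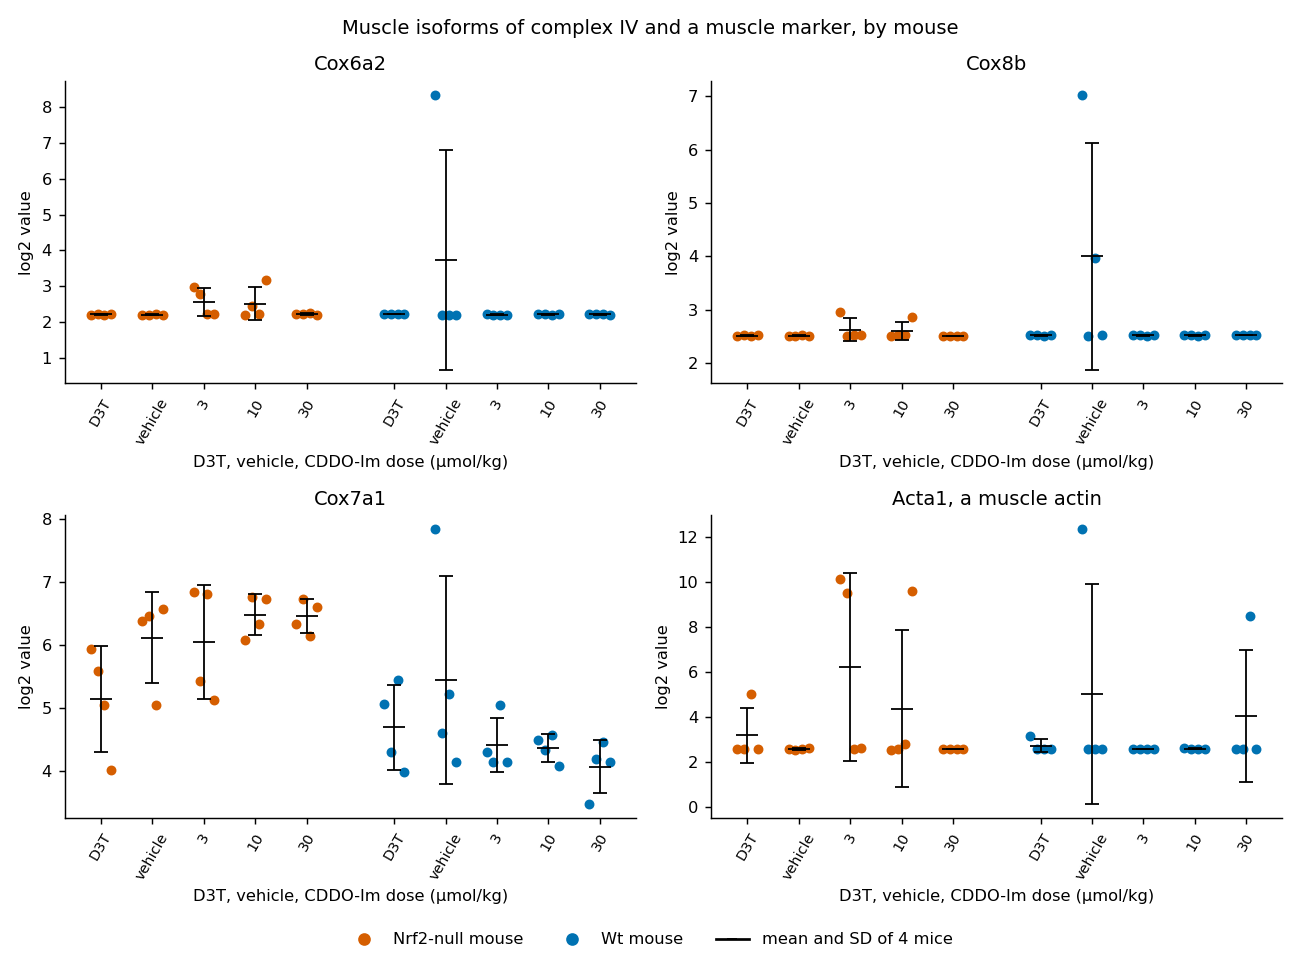
Log2 intensity (y axis) in each mouse of Cox6a2, Cox8b, Cox7a1 and the muscle actin Acta1 by treatment (x axis), with Nrf2-null groups left of Wt groups. Cox6a2 reached 8.35 in Wt vehicle replicate 1, the mouse with Acta1 at 12.36.

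In Nrf2-null liver few members passed the test with CDDO-Im. At 30 μmol/kg CDDO-Im 0 of 69 members passed limma in either direction, against 0.103% of genes lower and 0.0722% higher, with 6 members at an unadjusted p under 0.05 and a median change of 0.01. At 10 μmol/kg 0 passed as well, against 0.0516% of genes lower and 0.0206% higher, with 15 at an unadjusted p under 0.05 and a median change of 0.09. When arrays were weighted 5 passed, in a fit for which the share of all genes is not given here. At 3 μmol/kg 2 were higher and 1 was lower, against 0.309% and 0.464% of genes. These were Ndufa5, a complex I accessory subunit (13.14, 13.19, 13.02 and 13.06 against 12.88, 12.79, 12.78 and 12.80 with vehicle, a change of 0.29, adjusted p = 0.040), the membrane subunit Ndufb11 (14.23, 14.27, 14.27 and 14.32 against 14.14, 14.13, 13.93 and 14.13, a change of 0.19, adjusted p = 0.037) and Ndufaf4. Ndufaf4 read 10.24, 10.63, 10.41 and 10.55 against 11.08, 10.97, 10.94 and 10.94 and fell by 0.52 (adjusted p = 0.028). None of these groups overlapped. Over all members the groups did not overlap in 6 (8.7%), against 5.24% of all genes.

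The difference between genotypes was tested directly, as the Nrf2-null response minus the Wt response, so that a positive value means a smaller fall or a larger rise in Nrf2-null mice. For 30 μmol/kg 27 members were higher and 0 lower by this measure, against 10.1% and 1.78% of genes, with a median of 0.27 for members and 0.17 for all genes. They were 12 complex I, 1 complex II, 5 complex III and 7 complex IV subunits and 1 assembly factor each of complexes I and II. After centring 1 was higher (Sdhaf1) and 1 lower (Sdhc, −0.36, adjusted p = 0.044), against 3.07% and 3.29% of genes, with a median of 0.11. Without the 9 arrays with markers of other tissues 1 was higher, against 0.547% of genes, with a median of 0.26. For 10 μmol/kg 15 were higher and 2 lower, against 3.7% and 1.7% of genes, with a median of 0.21 against 0.09, and 11 were higher and 1 lower after centring, against 3.49% and 1.78% of genes. Without these arrays 1 was higher, against 0.206% of genes, with a median of 0.15.

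Sdhaf1 had the largest difference of the called members at both doses by size. At 30 μmol/kg it read 8.34, 8.19, 8.28 and 8.49 in Nrf2-null mice, against 8.28, 8.26, 8.10 and 7.99 in Nrf2-null vehicle mice, and these overlapped. Its genotype difference was 1.33 (adjusted p = 0.00013), or 1.17 (adjusted p = 0.00052) after centring, and it was 0.85 (adjusted p = 0.018) for 10 μmol/kg, where Nrf2-null mice read 7.97, 8.17, 8.28 and 8.19. Ndufa9 read 12.63, 12.74, 12.73 and 12.58 at 30 and 12.80, 12.78, 12.86 and 12.76 at 10 μmol/kg in Nrf2-null mice, against 12.73, 12.65, 12.72 and 12.63 with vehicle, and its genotype differences were 0.41 (adjusted p = 0.00087) and 0.38 (adjusted p = 0.0031).

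Among subunits of complexes III and IV, Uqcrb, Cox4i1, Uqcrq and Ndufa4 had called differences above 0, whereas the core subunits Uqcrc1 (−0.13) and Uqcrc2 (−0.10) did not pass for 30 μmol/kg. Uqcrb read 15.15, 15.25, 15.22 and 15.16 at 30 and 15.34, 15.29, 15.30 and 15.45 at 10 μmol/kg in Nrf2-null mice, against 15.29, 15.20, 15.25 and 15.23 with vehicle, with genotype differences of 0.33 (adjusted p = 0.0043) and 0.42 (adjusted p = 0.00078). Cox4i1 read 14.42, 14.55, 14.34 and 14.39 at 30 and 14.55, 14.46, 14.52 and 14.58 at 10 μmol/kg, against 14.38, 14.48, 14.31 and 14.48, with differences of 0.36 (adjusted p = 0.0032) and 0.32 (adjusted p = 0.013). Nrf2-null mice at 30 μmol/kg overlapped their vehicle group for both genes. Uqcrq, a small complex III subunit, read 13.70, 13.84, 13.75 and 13.74 in Nrf2-null mice at 30 μmol/kg against 13.78, 13.62, 13.59 and 13.71 with vehicle, and 13.50, 13.41, 13.35 and 13.51 in Wt mice against 13.68, 13.74, 13.68 and 13.68, a difference of 0.34 (adjusted p = 0.0025). Ndufa4 differed by 0.30 (adjusted p = 0.0048), with 14.06, 14.09, 14.04 and 14.05 in Nrf2-null mice at 30 μmol/kg against 14.13, 14.05, 13.95 and 14.08 with vehicle, and 13.93, 13.86, 13.84 and 13.92 in Wt mice against 14.22, 14.19, 14.17 and 14.15. Both genes overlapped vehicle in Nrf2-null and not in Wt mice.

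For 10 μmol/kg the complex I accessory subunits Ndufa12 and Ndufs4, the second needed to join the NADH-oxidizing module to the enzyme, were among those of smallest p. Ndufa12 read 13.95, 13.88, 13.90 and 13.98 in Nrf2-null mice against 13.72, 13.63, 13.63 and 13.79 with vehicle, and 13.64, 13.60, 13.56 and 13.44 in Wt mice against 13.87, 13.79, 13.75 and 13.72. The groups separated in opposite directions in the 2 genotypes, with a difference of 0.46 (adjusted p = 0.0010). Ndufs4 read 11.55, 11.61, 11.63 and 11.58 in Nrf2-null mice against 11.55, 11.22, 11.35 and 11.37, and 11.25, 11.05, 11.19 and 11.30 in Wt mice against 11.47, 11.43, 11.51 and 11.35, a difference of 0.46 (adjusted p = 0.014). The 2 members called lower by this measure were Ndufaf4 (−0.65, adjusted p = 0.020) and Uqcrc2 (−0.22, adjusted p = 0.041), and the other probe set of Ndufaf4 was at −0.07 (adjusted p = 0.84).

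D3T at 300 μmol/kg left most members within the vehicle spread. In Wt liver 4 members were lower and 0 higher, against 1.59% and 2.64% of genes, with 14 at an unadjusted p under 0.05 and a median of −0.04. Ndufaf4 read 10.18, 10.61, 10.53 and 10.43 with D3T against 10.66, 10.80, 11.00 and 10.90 with vehicle and fell by 0.40 (adjusted p = 0.045), although its other probe set did not pass (−0.26, adjusted p = 0.23). Ndufv3, an accessory subunit of the NADH-oxidizing module, read 13.79, 13.69, 13.73 and 13.56 against 13.98, 13.98, 13.90 and 13.80 and fell by 0.22 (adjusted p = 0.048). Ndufb9, a membrane-arm subunit, read 13.99, 13.97, 14.03 and 14.02 against 14.27, 14.19, 14.17 and 14.13 and fell by 0.19 (adjusted p = 0.033), and Ndufb11 fell by 0.17. The D3T mice lay below vehicle without overlap in all 3 called genes with values given. Over all members the groups did not overlap in 10 (14.5%), against 14.1% of all genes. Leaving out single mice gave 0 to 3 calls, and 0 passed without the arrays with markers of other tissues, against 0.309% of genes.

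In Nrf2-null liver 3 members were lower with D3T and 0 higher, against 1.83% and 2.27% of genes. Ndufa3, a small membrane-arm subunit, read 13.64, 13.51, 13.32 and 13.59 against 13.86, 13.90, 14.02 and 14, without overlap, and fell by 0.43 (adjusted p = 0.0019). Ndufa1 read 14.17, 14.15, 14.15 and 14.33 against 14.47, 14.57, 14.21 and 14.51, which overlapped, and fell by 0.24 (adjusted p = 0.015). Ndufv3 read 13.67, 13.54, 13.49 and 13.29 against 13.66, 13.81, 13.82 and 13.79, also with overlap, and fell by 0.27 (adjusted p = 0.015). The difference between genotypes in the D3T response passed limma for 0 members, with 9 at an unadjusted p under 0.05, against 0.0413% of genes lower and 0.0309% higher.

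Set against D3T in Wt liver, CDDO-Im gave lower values in most called members. At 10 μmol/kg, the dose the study paired with 300 μmol/kg D3T, 13 members were lower and 3 higher than with D3T, against 13.8% and 4.87% of genes, and 4 were lower and 3 higher after centring, against 9.14% and 7.36%. Ndufaf4 was higher with CDDO-Im, at 10.88, 11.24, 11.12 and 11.06 against 10.18, 10.61, 10.53 and 10.43 with D3T, without overlap (0.64, adjusted p = 0.00048), while Sdhaf1 was lower (−0.64, adjusted p = 0.0037), as was Ndufb7 (−0.34, adjusted p = 0.00046). With 30 μmol/kg 44 were lower and 2 higher, against 26.2% and 4.45% of genes, and 9 were lower and 5 higher after centring, against 10% and 11.7%. Only the 30 μmol/kg group shared its range of animal numbers with the D3T group. Sdhaf1 was lower there (−0.95, adjusted p = 2.8e-05), and so were Ndufaf6 (−0.66, adjusted p = 4.1e-05) and Ndufa9 (−0.33, adjusted p = 4.2e-05), which did not pass after centring (−0.14, adjusted p = 0.10). Ndufb6 had probe sets called in opposite directions, at 0.31 and −0.22. All of these comparisons with vehicle or D3T reuse the same control mice, and the compounds differ in molar dose, so that they compare these doses and not the compounds.

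Without treatment the genotypes were close. Of the 69 members 2 were higher and 2 lower in Nrf2-null than in Wt vehicle mice, against 5.85% and 4.97% of genes, and 1 was higher and 6 lower after centring, against 4.29% and 8.97%. Ndufc1, a small membrane-arm subunit, read 13.58, 13.59, 13.28 and 13.78 in Nrf2-null against 13.15, 13.21, 13.15 and 13.28 in Wt mice, groups that touched at 13.28, and was higher by 0.36 (adjusted p = 0.0058). Uqcrc2 read 14.08, 14.16, 14.29 and 14.10 against 13.95, 13.87, 13.98 and 14 and was higher by 0.21 (adjusted p = 0.0038). Ndufb3 (−0.42, adjusted p = 0.017) and Uqcrb (−0.18, adjusted p = 0.027) were lower. Without the arrays with markers of other tissues 0 passed limma, against 2.88% of genes.

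Other values also differed between groups, not always the groups in which members were lower, and their part in the results was not tested. A clock score, the mean of evening-peaking minus morning-peaking clock genes, was −2.37 ± 0.12 in Wt mice at 30 μmol/kg, 2.78 ± 0.81 at 10 μmol/kg and −2.76 ± 0.14 with vehicle (SD, n = 4), and with it as a covariate 1 member (Sdhaf1) was lower at 10 μmol/kg, where 0.34% of all genes passed. The median member change in that fit was −0.12, against −0.11 without the covariate, and since the scores of these groups lay far apart, score and treatment can hardly be separated at that dose. In Nrf2-null mice the score was 1.99, −2.37, 2.33 and −2.55 at 10 μmol/kg and 3.08, −3.26, −2.46 and −3.31 with vehicle. Without the vehicle mouse at 3.08 (replicate 1), 7 members passed at 10 μmol/kg in Nrf2-null liver, where 0 passed with it. The share of all genes passing in that fit is not given here, so this count cannot be set against it. The score at 30 μmol/kg was close to vehicle. The mean of 6 Kupffer cell markers ran between 9.92 and 10.26 in Wt mice at 30 μmol/kg and between 9.11 and 9.78 with vehicle. At 3 μmol/kg it ran between 9.43 and 10.70, and at 10 μmol/kg between 9.13 and 10.11. The mean of 6 hepatocyte markers ran between 15.30 and 15.37 at 30 μmol/kg and between 15.43 and 15.50 with vehicle, without overlap. It ran between 15.42 and 15.49 at 3 and between 15.39 and 15.46 at 10 μmol/kg, and both ranges overlapped vehicle. These marker values were not centred, and the array medians of the same groups also differed, with means of 7.56 and 7.73.

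Neighboring mitochondrial genes, from fixed lists, behaved in part alike at 30 μmol/kg in Wt liver, where 20.8% of all genes were lower and 2.81% higher, or 5.61% and 6.57% after centring. Of 17 subunits of the ATP synthase 11 were lower, with a median of −0.22, and 1 was lower after centring. Of 76 proteins of the mitochondrial ribosome 36 were lower and 0 higher, with a median of −0.26, and 12 were lower and 1 higher after centring (median −0.08). Of 15 electron carriers and their partners 8 were lower and 1 higher, of 20 assembly factors of complexes III and IV 8 were lower and 1 higher, and of 16 enzymes of the citric acid cycle 6 were lower. Counts after centring are not given here for these carriers, assembly factors and citric acid cycle enzymes. Of 42 proteins of the cytosolic ribosome 5 were lower and 2 higher, with a median of −0.04, and 0 were lower and 9 higher after centring. In Nrf2-null liver at 30 μmol/kg the medians of the ATP synthase and of the mitochondrial ribosome were 0.00 and 0.03. Transcripts encoded by mitochondrial DNA were not measured here.

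Regulators of these genes gave mixed values in Wt liver. Tfam, which packages and transcribes mitochondrial DNA, read 10.11, 9.99, 10.05 and 10.05 at 30 μmol/kg against 10.46, 10.42, 10.35 and 10.47 with vehicle and fell by 0.37 (adjusted p = 0.00050), and by 0.20 (adjusted p = 0.025) after centring. It changed by 0.04 at 10 μmol/kg. Polrmt, the mitochondrial RNA polymerase, fell by 0.46 (adjusted p = 0.00056) at 30 and 0.40 (adjusted p = 0.0027) at 10 μmol/kg and by 0.31 (adjusted p = 0.047) with D3T, and passed each time after centring. Nrf1, which encodes NRF-1, changed by 0.01 (adjusted p = 0.96) at 30 μmol/kg. Its probe set read 4.40 to 4.41 there and 4.31 to 4.47 with vehicle, near the log2 4 minimum, so that a change could be missed. At 30 μmol/kg Sp1 (−0.37, adjusted p = 0.015) and Tfb2m (−0.27, adjusted p = 0.035) were lower beside Tfam and Polrmt, where 20.8% of all genes were. Neither Sp1 nor Tfb2m passed there after centring. At 10 μmol/kg Sp1 (−0.33, adjusted p = 0.033, or 0.044 after centring) was lower beside Polrmt, against 12.4% of genes. At that same dose of 10 μmol/kg 3 of 14 regulators were higher, against 5.06% of genes. Ppara, a nuclear receptor for fatty acids, read 10.91, 11.53, 11.62 and 11.75 against 10.56, 10.46, 10.08 and 10.58 with vehicle, without overlap, and rose by 1.03 (adjusted p = 0.0016). The coactivator Ppargc1b rose by 1.16 (adjusted p = 0.026) and Gabpa, a subunit of nuclear respiratory factor 2, by 0.24 (adjusted p = 0.023). All 3 also passed after centring, where Ppara was higher at 30 μmol/kg as well (0.60, adjusted p = 0.048). The Wt mice at 10 μmol/kg also had the high clock score. In the Nrf2-null mice at 10 μmol/kg, scored 1.99, −2.37, 2.33 and −2.55, Ppara read 11.53, 10.17, 11.45 and 10.58. Ppargc1b read 8.90, 7.81, 8.71 and 7.53 in those mice. The Nrf2-null vehicle mice, scored 3.08, −3.26, −2.46 and −3.31, read 12.09, 11.2, 11.43 and 11.33 for Ppara. Vehicle mice with negative scores thus read near the high-score mice at 10 μmol/kg for Ppara. Ppargc1b was 9.44 in the vehicle mouse scored 3.08 and at most 7.93 in the others. The part of the score in the rises in Wt mice was not tested. The coactivator Ppargc1a, which drives mitochondrial biogenesis, rose with D3T by 1.10 (adjusted p = 0.034) and changed by −0.54 (adjusted p = 0.20) at 30 μmol/kg. Nqo1, a direct Nrf2 target, rose by 4.09 (adjusted p = 7.6e-11) at 30 μmol/kg, with 9.34, 8.68, 9.27 and 7.97 against 4.98, 4.43, 4.69 and 4.79 with vehicle, and read 3.17 to 3.74 in Nrf2-null mice at that dose.

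More than 1 probe set passed the minimum for 39 members. At 30 μmol/kg in Wt liver 86 of all 130 probe sets were lower as deposited. Of all genes 20.8% were lower there as deposited and 5.61% after centring. The share over all kept probe sets and centred probe set counts are not given here, so the probe set counts cannot be set against them. The members called lower had 43 further probe sets, of which 41 had the same sign and 32 were called as well. The members not called included some whose other probe set fell, among them Ndufb6 (−0.18, adjusted p = 0.029), Ndufaf4 (−0.37, adjusted p = 0.023) and Uqcrc2.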

How the data were processed

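RNA from the livers of 40 mice (10 groups of 4) was measured on Affymetrix arrays with 45037 probe sets. The authors deposited log2 values preprocessed by GCRMA, named in the submitters' processing notes. The sources used here do not state its version or which arrays were normalized as a set. Background correction and quantile scaling of this kind can hide or create shifts shared by many genes. Every deposited value column belonged to 1 mouse, and detection calls were not used here. Values ran between 1.56 and 16.74. Arrays give no read depth, and precision depends on the 4 mice per group and on a spread estimated over all 40 arrays.

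Probe sets with 1 annotated symbol (34945) and a value of log2 4 in 3 or more mice of a group were kept (16472), and the probe set of highest mean stood for each of 9695 genes. The 932 probe sets with several symbols, 10 of them matching the member rule, were left out. limma 3.58.1 (lmFit, eBayes with trend and robust, R 4.3.3) was fitted to all 10 groups, with Benjamini-Hochberg adjustment over the 9695 genes and a threshold of 0.05. Summaries used Python 3.11.15, pandas 2.3.3 and Matplotlib 3.10.9, and the fit was tested on simulated data. No label says that a replicate number pairs mice across groups, and animal numbers give only the ranges described above.

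The members and lists were chosen with earlier results of these data known. Values by mouse were given for the members of smallest p per complex at 10 and 30 μmol/kg, the called members of largest change per comparison, muscle isoforms, up to 6 members per genotype difference, and members with opposite probe sets. Core subunits and regulators were also given, as were Ndufaf6, Sdhd, Ndufc1 and further comparisons of members already named, which were chosen after their values were seen. Alternatives were centring, a second quantile normalization, other minimums, fits without trend, with only the groups compared, with array weights, with the replicate number as a block, with the probe set of highest variance, leaving out each mouse, and the methods' Kruskal-Wallis, Wilcoxon and 1.5-fold rules, with the log2 4 minimum in place of their detection calls. Leaving out the 9 arrays with markers of other tissues, the clock covariate, the restriction to genes of log2 12 or more and the median change under each scaling were chosen after seeing the data. Promoter windows came from RefSeq on GRCm38.p6. No coordinates are given for probe sets, since the sources used here name no genome build for the array.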

Additional observations from a re-analysis of the deposited data

Results flagged for a closer look

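The mean level of a class in each group of 4 mice, and the level of a muscle isoform, was checked for a mouse far from the other 3. Chance alone gives such a mouse in about 1 of 20 groups. In Nrf2-null mice at 3 μmol/kg CDDO-Im, replicate 1 had a complex I mean of 12.90 (others 12.80 to 12.81) and a complex II mean of 12.83 (others 12.69 to 12.71), replicate 2 had a complex II assembly mean of 9.35 (others 9.31 to 9.32), and replicate 3 had Cox7a2l at 11.24 (others 11.36 to 11.38). In Nrf2-null mice at 30 μmol/kg replicate 2 had a complex III mean of 13.52 (others 13.37 to 13.39) and Cox7a2l at 11.23 (others 11.55 to 11.61). Replicate 2 of the Nrf2-null mice at 10 μmol/kg had a complex II mean of 12.77 (others 12.80), replicate 1 of those given D3T had a complex IV mean of 12.81 (others 12.71 to 12.72), and replicate 3 of those given vehicle had Cox7a1 at 5.04 (others 6.37 to 6.57). In Wt mice replicate 1 at 3 μmol/kg had a complex II assembly mean of 9.44 (others 9.29 to 9.31), and replicate 1 with vehicle had Cox6a2 at 8.35 (others 2.20).

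Genotype differences in the response (Nrf2-null response minus Wt response) passed limma for 27 members at 30 and 17 at 10 μmol/kg. The 6 of smallest p among them were, for 30 μmol/kg, 1.33 for Sdhaf1, 0.41 for Ndufa9, 0.34 for Uqcrq, 0.36 for Cox4i1, 0.33 for Uqcrb and 0.30 for Ndufa4. For 10 μmol/kg they were 0.42 for Uqcrb, 0.46 for Ndufa12, 0.38 for Ndufa9, 0.32 for Cox4i1, 0.46 for Ndufs4 and 0.85 for Sdhaf1.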

How the results depend on the processing

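Counts of members called in Wt liver were 4 with D3T and 1, 20 and 44 at 3, 10 and 30 μmol/kg CDDO-Im. After centring they were 7 at 10 and 7 at 30 μmol/kg, with medians of −0.05 and −0.10 (as deposited −0.11 and −0.27), 2 for the genotype difference at 30 μmol/kg (27 as deposited, median 0.11 against 0.27), 7 between genotypes with vehicle (4 as deposited), and 7, 14 and 5 (16, 46 and 15 as deposited) for 10 against D3T, 30 against D3T and 30 against 10 μmol/kg. Centring removes the shift of the array medians, and what caused that shift was not tested. With only the compared groups fitted, which leaves fewer mice to estimate the spread, counts were 2 for D3T, 0 at 3 μmol/kg, 10 and 17 for the genotype differences at 10 and 30 μmol/kg (17 and 27 with all groups), 10 for 10 μmol/kg against D3T, and 0 for Nrf2-null D3T, Nrf2-null 3 μmol/kg and the vehicle genotypes (3, 3 and 4 with all groups). Without the arrays with markers of other tissues they were 0 for D3T, 0, 2 and 16 at 3, 10 and 30 μmol/kg, 0 for Nrf2-null 3 μmol/kg, 0 between vehicle genotypes, 1 and 1 for the genotype differences and 7 for 30 against 10 μmol/kg. That fit has fewer mice, and the cause was not tested. With array weights they were 8 for D3T, 12 at 3 μmol/kg, 5 for Nrf2-null 10 μmol/kg (0 unweighted), 25 for 10 μmol/kg against D3T and 24 for 30 against 10 μmol/kg. The methods' rules gave 0 for D3T and 1, 1 and 2 at 3, 10 and 30 μmol/kg. They gave 1, 2 and 1 for 10 against D3T, 30 against D3T and 30 against 10 μmol/kg. The 1.5-fold rule removes most members. Over the Wt groups 2 of 69 members passed both the Kruskal-Wallis and the 1.5-fold step, a smaller share than the 13.6% of all genes. With the clock covariate the count at 10 μmol/kg was 1. With the probe set of highest variance it was 2 for D3T, 3 at 3 μmol/kg and 6 for Nrf2-null D3T, and Uqcrc2 at 10 μmol/kg (−0.05) and Ndufb11 in Nrf2-null mice at 3 μmol/kg (−0.03) changed sign. Without a minimum it was 2 for D3T and 1 for Nrf2-null 3 μmol/kg, without trend and robust 1 and 1, and after a second quantile normalization 6 for Nrf2-null D3T. For these settings the cause was not tested. Shares of all genes are not given here for the weighted, compared-groups, highest-variance, no-minimum and untrended fits. Nor are they given for the single comparisons under the methods' rules, or for the replicate block and the single-mouse fits below. Those counts show how calls moved with the setting and are not a result about the members.

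Mice of the same replicate number deviated from their group means with a mean correlation of −0.007, between −0.32 and 0.37, so the numbers do not pair mice. With the replicate number as a block 6 members passed for Nrf2-null D3T (3 without it), 45 at 30 and 18 at 10 μmol/kg in Wt mice, and no other count moved by over 1.5 times.

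Leaving out single mice gave 0 to 3 calls for D3T, 0 to 2, 11 to 21 and 38 to 45 at 3, 10 and 30 μmol/kg, 2 to 6 for Nrf2-null D3T, 0 to 5, 0 to 7 and 0 to 0 for Nrf2-null 3, 10 and 30 μmol/kg, 3 to 6 between vehicle genotypes, 0 to 0, 10 to 21 and 18 to 32 for the genotype differences with D3T, 10 and 30 μmol/kg, 7 to 19 and 39 to 47 for 10 and 30 μmol/kg against D3T, and 9 to 16 for 30 against 10 μmol/kg. The count at 10 μmol/kg was 12 without Wt vehicle 1, 13 without Wt vehicle 2 or Wt CDDO-Im 10 replicate 2, and 11 without replicate 4. The genotype difference at 10 μmol/kg gave 10 without Wt vehicle 2, Wt CDDO-Im 10 replicate 1 or 4, or Nrf2-null CDDO-Im 10 replicate 2, that against D3T gave 9, 7 and 10 without Wt D3T 1, 2 and 3 and 7 without Wt CDDO-Im 10 replicate 4, that for 30 against 10 μmol/kg gave 9 without Wt CDDO-Im 30 replicate 2, and that for Nrf2-null 10 μmol/kg gave 7 without Nrf2-null vehicle 1. Of 739 values of the 35 named results, 616 kept direction and side of the threshold, 121 no longer passed and 2 changed sign. Dim probe sets such as that of Cox7c carry the least signal over background.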

Other observations

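Ndufaf4, an assembly factor of complex I, gave values that depended on the probe set. Its brighter probe set was lower than with vehicle in Wt mice given D3T (−0.40, adjusted p = 0.045) and in Nrf2-null mice at 3 μmol/kg CDDO-Im (−0.52, adjusted p = 0.028). In Wt mice at 10 μmol/kg it was higher than with D3T (0.64, adjusted p = 0.00048), and in the genotype difference for that dose it was lower in Nrf2-null mice (−0.65, adjusted p = 0.020). Its other probe set did not pass with D3T (−0.26, adjusted p = 0.23) and showed genotype differences of −0.07 (adjusted p = 0.84) for 10 and 0.27 (adjusted p = 0.31) for 30 μmol/kg, and in Wt mice at 10 μmol/kg it was at −0.13, where the brighter one was at 0.24. Nrf2-null mice at 30 μmol/kg read 10.57, 10.42, 10.58 and 10.80 against 11.08, 10.97, 10.94 and 10.94 with vehicle, without overlap, a change that did not pass limma. Among the 7 complex I assembly genes outside the member rule 2 were higher with D3T in Wt liver, with a median of 0.27, and 0 passed at 30 μmol/kg, where the median was −0.07.

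By the rules of the study's methods, with a minimum of log2 4 in place of detection calls (a Kruskal-Wallis test permuted 1000000 times, with false discoveries held to 5 percent, then a 1.5-fold limit and an exact Wilcoxon test), 50 of 69 members passed the Kruskal-Wallis test over the Wt groups, against 45.6% of all genes, 3 reached 1.5-fold, against 18.9%, and 2 passed both, against 13.6%.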
